A study of Mus musculus with 35 samples.

Results

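The 10 genes described here were Fos, Fosb, Jun, Junb, Jund, Egr1, Atf3, Ier2, Dusp1 and Hspa1a, most of which are switched on within minutes when cells are stimulated or stressed. They were taken by name, though with earlier results of these data known. In the bulk table of 53465 genes and the single-cell tables of 24262 genes, 10 of 10 were found. The study set out to map communication between the cell types of the developing mouse brain, for which brains were dissociated at embryonic day E14.5 with the enzymes Liberase and DNase I and sorted by FACS. Neural cells were sorted as negative for vascular and immune surface markers, mural cells (pericytes and smooth muscle cells of vessels) as PDGFRβ high, endothelial cells as PECAM1 and CD102 positive, and microglia as CD45 medium with CD11b in the bulk sort. The deposited well table gives the single-cell microglia gate as CD45 medium and CD41 positive, while the methods describe microglia by CD11b and CD45. The bulk RNA-seq data were 12 libraries, 1 for each of 4 populations from each of 3 wild-type brains, labelled brain-340, brain-343 and brain-346. The single-cell data came from wild-type plates 1 to 3, with the sort gate known for each well, and from Mof knockout plates 4 to 6, for which no gates were given. Wild-type single cells came in equal numbers from 3 brains, but neither the way Mof was deleted nor whether a plate held cells of 1 brain was given, so p-values for plates measure the spread between plates only. Unsorted brain was not measured, and every group in the series had gone through dissociation and sorting, so a level before sorting cannot be read from these data.

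Immediate early genes need no new protein to be transcribed. MAP kinases and calcium signals activate factors that already sit at their promoters, such as serum response factor with its partners and CREB, and the messages appear and decay quickly. FOS and JUN family proteins pair to form AP-1, EGR1 is a zinc finger transcription factor, ATF3 is a stress-responsive factor, and DUSP1 removes phosphate from MAP kinases and so ends the signal. HSPA1A is an inducible chaperone of the heat shock response. In brain tissue these genes mark recently active neurons, and enzymatic dissociation is known to raise many of them, in microglia among other cells.

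The depth of the bulk libraries ran from 17638358 to 98414914 reads on genes. Among the single cells, 686 wild-type cells in the 4 gates had more than 1500 transcripts, and 652 of them, or 95.04%, had their own gate's marker list as the highest of 4 lists of 12 markers each. Plate 3 stood apart, with 14 neural, 10 mural, 13 endothelial and 6 microglia cells, and only 8 of its 13 endothelial-gated cells had endothelial markers highest. The library titled 11 of that plate was joined to the wells listed as library 12 in the gate table, which lists no library 11, because its file carries the number 12. It holds all 14 neural and 6 microglia cells of plate 3, and 19 of these 20 cells had their gate's markers highest. In the bulk libraries the 12 microglia markers (among them C1qa, Csf1r and Cx3cr1) summed to 376549 to 434971 normalized counts in microglia and to 6.03 to 135 in the other 9 libraries. Neural markers summed to 10148 to 49156 in the 9 vascular and microglial libraries, against 165782 to 176089 in neural ones. Markers of other cell types were present too, with border macrophage markers (such as Mrc1 and Pf4) at 24310 to 32259 in microglia and 5912 to 8087 in endothelial cells, fibroblast markers (such as Col1a1) at 8873 to 11803 in mural cells and erythroid markers (hemoglobin genes and Alas2) at 13054 to 34038 in endothelial and 9021 to 11826 in neural cells, and their part in the results was not tested. Neural RNA was prepared with another extraction kit and a TruSeq library, and the other populations with SMART-Seq v4 and Nextera XT, so library chemistry and the neural population cannot be told apart in bulk. Mitochondrial genes took 1.41% to 1.51% of the neural libraries and 7.93% to 22.27% of the others, while in single cells, all made with mCEL-Seq2, the median was 14.17% to 15.14% in the 4 gates.

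The control regions of the genes are shown first. For 8 of the 10 genes the RefSeq promoter table (GRCm38.p6) gave a start site, and the 250 bases before it were searched on both strands. The cAMP response element core TGACG was found before Fos, Fosb, Junb, Atf3 and Dusp1, that is 5 of 8, against 17.8% of 32851 promoters. The member windows were richer in G and C, with a median of 64.2% against 52.4% over all promoters, and the shares are not matched for it. The full element TGACGTCA, which contains the core, was found only before Dusp1 among the 8, against 1.55% of promoters. A heat shock element, searched as GAANNTTC, was found before Hspa1a and Jun (6.69% of promoters), and TATAAA before Fos (12.4%). Neither the CArG box, which serum response factor binds (1.47%), nor the AP-1 site TGACTCA (4.46%) was in any of the 8 windows. This says nothing of sequence outside them, or of Egr1 and Ier2, which were not searched. Printed below are Fos and Dusp1, with several matches each, Atf3, whose excess in microglia over mural cells was the largest, and Hspa1a. Bases are 5′ to 3′ on the gene's strand and end just before the start, and capitals mark the core, the full element, the heat shock element and TATAAA.
Fos (chr12:85473640-85473889, + strand): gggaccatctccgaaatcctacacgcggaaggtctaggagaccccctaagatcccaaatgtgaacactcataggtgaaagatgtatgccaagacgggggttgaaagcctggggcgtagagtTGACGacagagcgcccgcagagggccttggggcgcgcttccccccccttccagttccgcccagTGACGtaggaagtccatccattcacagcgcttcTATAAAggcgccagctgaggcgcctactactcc
Dusp1 (chr17:26508473-26508722, - strand): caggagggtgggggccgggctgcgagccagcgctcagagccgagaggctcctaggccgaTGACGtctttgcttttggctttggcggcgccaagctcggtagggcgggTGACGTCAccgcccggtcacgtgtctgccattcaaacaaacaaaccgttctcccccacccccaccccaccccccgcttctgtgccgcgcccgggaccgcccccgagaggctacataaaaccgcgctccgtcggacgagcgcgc
Atf3 (chr1:191183334-191183583, - strand): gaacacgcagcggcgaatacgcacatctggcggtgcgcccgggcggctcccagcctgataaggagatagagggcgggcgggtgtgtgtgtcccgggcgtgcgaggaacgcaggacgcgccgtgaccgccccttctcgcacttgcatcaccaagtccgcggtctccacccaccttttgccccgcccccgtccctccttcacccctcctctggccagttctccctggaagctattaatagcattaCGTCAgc
Hspa1a (chr17:34972157-34972406, - strand): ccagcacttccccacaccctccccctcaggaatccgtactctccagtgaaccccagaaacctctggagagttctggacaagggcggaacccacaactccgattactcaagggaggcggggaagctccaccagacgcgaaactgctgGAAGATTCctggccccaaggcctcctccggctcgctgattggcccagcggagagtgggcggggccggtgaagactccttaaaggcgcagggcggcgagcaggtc
The core lay 129 and 66 bases before the start of Fos and 7 bases before that of Atf3. The full element of Dusp1 lay 143 bases before its start, and the heat shock element of Hspa1a 104 bases. A match is a string of letters and was not tested for binding.

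In bulk, the members were high in microglia. All 10 were higher in microglia than in endothelial cells by limma, where 32.4% of 19765 genes were called in either direction and 17.0% higher, and the median log2 difference of the members was 3.32 against 0.07 over all genes. Against mural cells 9 of 10 were higher, where 38.0% of genes were called and 20.1% were higher, with a median of 2.09 against 0.05. Mural against endothelial cells gave 5 members higher and 1 lower, where 13.5% and 14.3% of genes were called in those directions and 27.8% in either. Neural cells gave 8 members lower than the mean of the other 3 populations and 1 higher (31.2% and 32.9% of genes, 64.2% in either direction). Per kilobase of exon, Fos averaged 50491 normalized counts in microglia and ranked 20th of 26496 genes there, with Jun at 35138, Ier2 at 34616, Atf3 at 26367, Dusp1 at 25947, Junb at 25737 and Egr1 at 21987, all among the first 49 genes. In neural cells the first member was Jund, at 3659 per kilobase and rank 131 of 28007. In bulk samples more cells with a message and more message per cell cannot be told apart.

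**Figure D1:**
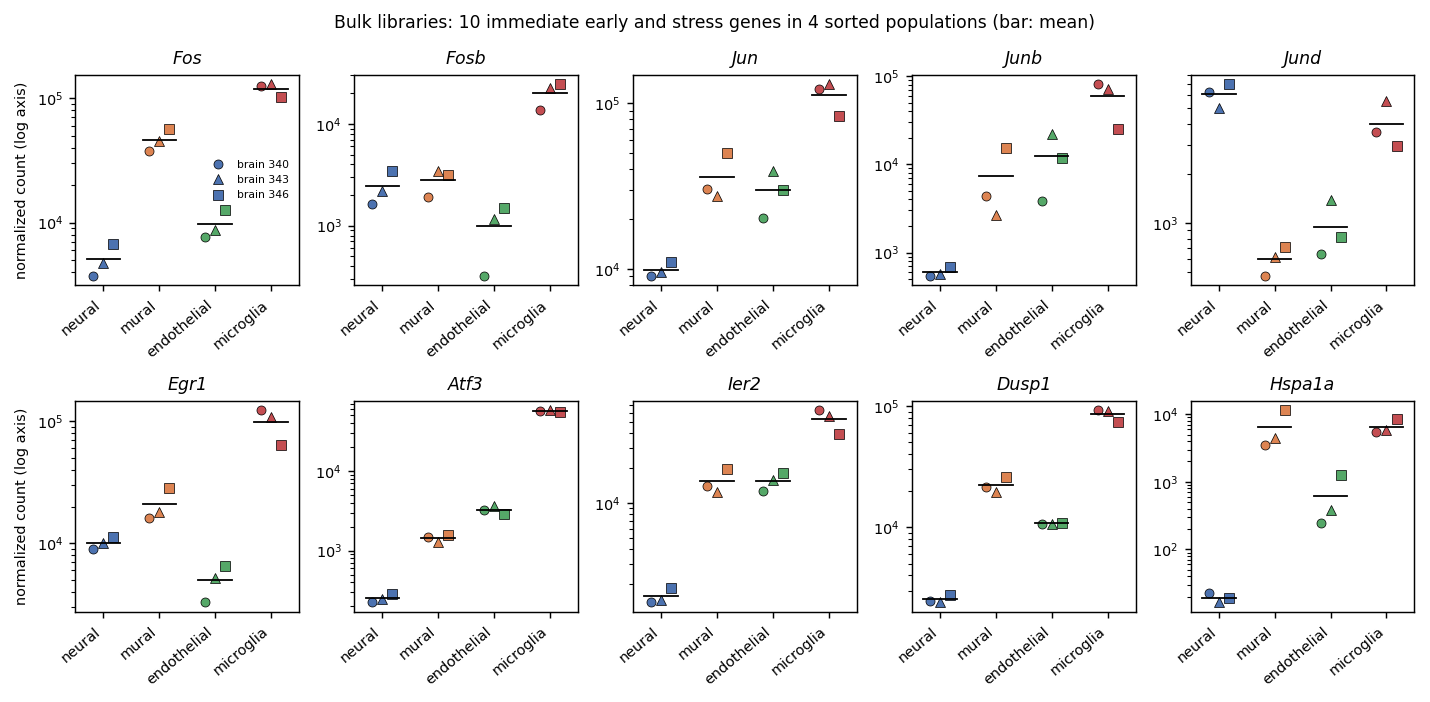
Normalized counts (log axis) of each gene in the 12 bulk libraries, by population, with 1 symbol per brain and a bar at the mean of 3. Microglia lie above mural and endothelial libraries for every gene but Hspa1a, and Jund is highest in neural and microglial libraries.

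Fos encodes the AP-1 subunit that needs a JUN partner to bind DNA. It is on chromosome 12 (85473890 to 85477273, + strand). In brain-340, brain-343 and brain-346, in that order here and below, its normalized counts were 125450, 129272 and 101542 in microglia, 37497, 45041 and 56343 in mural cells, 7665, 8723 and 12708 in endothelial cells and 3743, 4731 and 6803 in neural cells. No library of a population overlapped the next in this order. The log2 difference was 3.64 ± 0.24 (SE) between microglia and endothelial cells (limma, adjusted p = 7.39e-07), 1.37 ± 0.24 between microglia and mural cells (adjusted p = 0.00106) and 2.27 ± 0.24 between mural and endothelial cells (adjusted p = 5.65e-05). The single cells gave another order. In sums over plates 1, 2 and 3, Fos was at 1259, 1181 and 1945 counts per 1e6 transcripts (CPM) in mural cells, 379, 374 and 1781 in microglia, 316, 217 and 242 in endothelial cells and 99.7, 147 and 32.8 in neural cells. Mural cells were above microglia on each of the 3 plates, while microglia were above mural cells in each of the 3 brains. By edgeR the difference of microglia minus mural cells was -0.74 ± 0.39 (adjusted p = 0.13), and -0.94 with the plate as a block (adjusted p = 0.000543). Without plate 3, whose microglia sum came from 6 cells, it was -1.49 (adjusted p = 2.12e-08), and without plate 2 it was -0.19 (adjusted p = 0.872). The mural excess over endothelial cells had the same size as in bulk, 2.27 ± 0.40 (adjusted p = 9.39e-06). The excess of microglia over endothelial cells was 1.53 ± 0.41 (adjusted p = 0.00199), and DESeq2 gave 1.73 with an adjusted p of 0.0781. It was 0.61 without plate 3 (adjusted p = 0.00813).

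Fosb, the activity-induced relative of Fos, is on chromosome 7 (19302696 to 19310051, - strand). Its normalized counts were 13699, 22502 and 24617 in microglia, 1930, 3433 and 3162 in mural cells, 321, 1173 and 1493 in endothelial cells and 1651, 2213 and 3447 in neural cells. Brain-340 had the lowest value in each of the 4 populations, and neural and mural libraries overlapped. The log2 difference was 4.57 ± 0.52 for microglia minus endothelial cells (limma, adjusted p = 4.55e-05), 2.83 ± 0.52 for microglia minus mural cells (adjusted p = 0.00132) and 1.74 ± 0.52 for mural minus endothelial cells (adjusted p = 0.0291). The mural call was lost without brain-343 (1.83, adjusted p = 0.166), without brain-346 (2.07, adjusted p = 0.0757) and with no minimum on the level (1.74, adjusted p = 0.0519). Neural cells did not pass against the other populations at -0.61 ± 0.42 (adjusted p = 0.228), but did with the brain as a block (adjusted p = 0.0484) and without brain-340 (-0.76, adjusted p = 0.0187). On plates 1, 2 and 3 Fosb stood at 228, 221 and 552 CPM in microglia, 119, 168 and 247 in mural cells, 62.6, 25.1 and 0 in endothelial cells and 31, 7.10 and 10.9 in neural cells. The difference of mural minus endothelial cells in edgeR was 1.75 ± 0.35 (adjusted p = 7.89e-05), 1.55 without plate 2 (adjusted p = 0.0821) and 3.09 without plate 1 (adjusted p = 0.000206). That of microglia minus mural cells was 1.04 ± 0.31 (adjusted p = 0.00472), and it was not called by DESeq2 (1.09, adjusted p = 0.246) or without plate 1 (0.92, adjusted p = 0.232). Neural cells were lower by 2.83 ± 0.41 on the log2 scale than the mean of the others (-2.83, adjusted p = 5.04e-08).

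Jun encodes the main DNA-binding partner in AP-1 and is a gene of 1 exon on chromosome 4 (95049034 to 95052222, - strand). Normalized counts were 121659, 130919 and 83583 in microglia, 30241, 27629 and 50274 in mural cells, 20402, 38962 and 29965 in endothelial cells and 9049, 9586 and 10961 in neural cells. Mural and endothelial libraries overlapped, with a log2 difference of 0.27 ± 0.27 (limma, adjusted p = 0.499). Microglia were above mural cells by 1.66 ± 0.27 (adjusted p = 0.000611). In the single-cell sums Jun was at 1299, 1443 and 1807 CPM in mural cells, 982, 755 and 2317 in microglia, 847, 764 and 684 in endothelial cells and 341, 441 and 153 in neural cells. Microglia were thus below mural cells on plates 1 and 2 and above them on plate 3. EdgeR gave 0.00 ± 0.35 for microglia minus mural cells (-0.000282, adjusted p = 1), and -0.46 without plate 3 (adjusted p = 0.0271) against 0.48 without plate 2 (adjusted p = 0.601). The differences of mural minus endothelial cells (0.75 ± 0.36, adjusted p = 0.14) and of microglia minus endothelial cells (0.75 ± 0.36, adjusted p = 0.0959) were not called. With the plate as a block they were 0.72 (adjusted p = 0.0112) and 0.65 (adjusted p = 0.0189). The second was also called over every gated well (0.88, adjusted p = 0.0363) and over cells with their own markers highest (0.97, adjusted p = 0.0321). The first was called without plate 3 (0.69, adjusted p = 0.00203), whereas the second was 0.23 without plate 3 (adjusted p = 0.303) and 1.20 without plate 2 (adjusted p = 0.102). Neural cells had the lowest Jun in every brain and on every plate, by -1.92 ± 0.33 in the sums (adjusted p = 2.23e-06).

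Junb encodes a JUN relative that often restrains AP-1, on chromosome 8 (84974484 to 84978718, - strand). It had the largest standard errors in bulk. Normalized counts were 81015, 71217 and 25430 in microglia, 3827, 21941 and 11796 in endothelial cells, 4321, 2650 and 15264 in mural cells and 544, 576 and 691 in neural cells. The difference of microglia minus endothelial cells was 2.40 ± 0.73 (limma, adjusted p = 0.0262), which was lost without brain-340 (1.40, adjusted p = 0.316), without brain-343 (2.76, adjusted p = 0.0625) and after quantile normalization (1.92, adjusted p = 0.0531). That of microglia minus mural cells was 3.24 ± 0.73 (adjusted p = 0.00463), and 2.74 without brain-340 (adjusted p = 0.0617) or 2.48 without brain-343 (adjusted p = 0.0785). Mural minus endothelial cells gave -0.83 ± 0.73 (adjusted p = 0.432), with the sign turned to 0.27 without brain-343 (adjusted p = 0.882). The plates were closer to each other, with 585, 677 and 650 CPM in microglia, 434, 424 and 673 in mural cells, 298, 231 and 257 in endothelial cells and 22.1, 45 and 21.9 in neural cells. Microglia were above endothelial cells by 1.35 ± 0.33 (edgeR, adjusted p = 0.000603), and this was not called without plate 1 (1.34, adjusted p = 0.0584) or plate 2 (1.22, adjusted p = 0.0687). Against mural cells the difference was 0.64 ± 0.31 (adjusted p = 0.105), and 0.70 with the plate as a block (adjusted p = 0.00777). It was 0.76 without plate 3 (adjusted p = 0.000724). Mural minus endothelial cells was 0.71 ± 0.33 (adjusted p = 0.128), 0.66 with the block (adjusted p = 0.0285), 0.61 without plate 3 (adjusted p = 0.0123) and 0.80 over every gated well (adjusted p = 0.0438). Neural cells were lower than the mean of the others at -3.89 ± 0.38 (adjusted p = 3.91e-13).

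Jund, the JUN family member that most cells make at rest, went its own way. Its gene model on chromosome 8 (70698949 to 70700616, + strand) has 1 exon of 1668 bases and begins after the RefSeq start, so reads from further upstream are not in its counts. The bulk libraries held normalized counts of 6278, 5014 and 7019 in neural cells, 3596, 5564 and 2927 in microglia, 649, 1383 and 820 in endothelial cells and 476, 623 and 718 in mural cells. Neural and microglial libraries overlapped, and both lay above all mural and endothelial libraries. Neural cells were higher than the mean of the others by 2.24 ± 0.25 (limma, adjusted p = 2.17e-05). In the single-cell sums, made with 1 chemistry for all gates, Jund was at 400, 404 and 749 CPM in microglia, 237, 256 and 285 in neural cells, 173, 132 and 179 in mural cells and 140, 81.7 and 99.7 in endothelial cells. The neural difference from the mean of the others was 0.25 ± 0.26 (edgeR, adjusted p = 0.474). Microglia were above mural cells by 1.87 ± 0.32 (adjusted p = 2e-06) and above endothelial cells by 2.21 ± 0.33 (adjusted p = 1.12e-07). Mural cells were below endothelial cells in each brain (-0.60 ± 0.31, adjusted p = 0.183) and above them on each plate (0.34 ± 0.33, adjusted p = 0.566), and neither difference was called. Over the 12 bulk libraries the log2 level of Jund had a Pearson r of -0.07 with the mean of the other 9 members, while each of those 9 had an r of 0.77 to 0.97 with the rest. These libraries share brains and populations, so this is a description.

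Egr1 (chromosome 18, 34859823 to 34864984, + strand) encodes the zinc finger factor that serum and neuronal activity induce. Its normalized counts were 123041, 109015 and 63713 in microglia, 16294, 17922 and 28517 in mural cells, 8926, 10052 and 11350 in neural cells and 3296, 5245 and 6580 in endothelial cells. No 2 neighbouring populations in this order overlapped. Microglia exceeded mural cells by 2.23 ± 0.31 (limma, adjusted p = 0.000176), and mural cells exceeded endothelial cells by 2.06 ± 0.31 (adjusted p = 0.000551). Neural cells were lower than the mean of the others at -1.06 ± 0.25 (adjusted p = 0.00337), and -1.04 without brain-343 (adjusted p = 0.0599). On the plates mural cells and microglia were level, with 950, 1003 and 1239 CPM in mural cells and 952, 916 and 1106 in microglia. Endothelial cells had 202, 99 and 299 and neural cells 199, 422 and 142. The difference of microglia minus mural cells was 0.16 ± 0.35 (edgeR, adjusted p = 0.77), and -0.03 without plate 1 (adjusted p = 0.986). Mural minus endothelial cells was 2.32 ± 0.39 (adjusted p = 3e-06). The neural difference from the mean of the others was -1.22 ± 0.32 (adjusted p = 0.00156), -1.22 without plate 1 (adjusted p = 0.0514) and -2.04 without plate 2 (adjusted p = 0.000514).

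Atf3 encodes a factor of the ATF/CREB family that stress and inflammatory signals induce, and it was the member with the largest excess of microglia over mural cells in both kinds of data. It is on chromosome 1 (191170296 to 191218039, - strand). Normalized counts were 56827, 57865 and 55693 in microglia, 3200, 3641 and 2875 in endothelial cells, 1474, 1298 and 1588 in mural cells and 224, 249 and 288 in neural cells. No neighbours in this order overlapped. Microglia were above mural cells by 5.29 ± 0.14 (limma, adjusted p = 3.2e-09) and above endothelial cells by 4.14 ± 0.14 (adjusted p = 8.47e-09), and mural cells were below endothelial cells at -1.15 ± 0.14 (adjusted p = 0.000126). In the sums microglia had 1359, 1234 and 1224 CPM, mural cells 74.4, 67.3 and 179, endothelial cells 104, 61.3 and 0 and neural cells 17.7, 4.73 and 0. Microglia were above mural cells by 4.14 ± 0.41 (edgeR, adjusted p = 9.03e-13) and above endothelial cells by 4.23 ± 0.41 (adjusted p = 3.24e-13). The mural deficit of the bulk libraries was not seen in the sums, where mural minus endothelial cells was 0.10 ± 0.42 (adjusted p = 0.923), -0.01 with the plate as a block (adjusted p = 0.989) and -0.34 without plate 3 (adjusted p = 0.356). Cells with an Atf3 transcript made up 97.66% of microglia, 30.95% of mural, 28% of endothelial and 4.065% of neural cells, and 71.09%, 6.667%, 8.444% and 0.813% after each cell was thinned to 1500 transcripts. For scale, before thinning the mural gene Rgs5 was found in 23.44% of microglia, 20.89% of endothelial and 25.2% of neural cells, the endothelial gene Cldn5 in 3.125% of microglia and the neuronal gene Tubb3 in 0.7812%, at a median of 10761 transcripts per cell in microglia and 6408 in endothelial cells. After thinning Rgs5 was found in 5.469%, 11.11% and 5.691% of these cells. The Atf3 shares of mural and endothelial cells lie near those of Rgs5 in other populations, but above those of the other markers. The microglial gene Itgam, Cldn5 and Tubb3 were in 2.857%, 1.429% and 8.571% of mural cells before thinning. In endothelial cells Itgam and Tubb3 were in 3.556% and 5.333%. Whether these Atf3 shares stand for expression was not tested.

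Ier2, an immediate early nuclear protein, is a gene of 1 exon on chromosome 8 (84661331 to 84662852, - strand). The bulk libraries held normalized counts of 62676, 56173 and 39206 in microglia, 12721, 15756 and 18207 in endothelial cells, 14053, 12577 and 19694 in mural cells and 1405, 1482 and 1858 in neural cells. Mural and endothelial libraries overlapped (-0.02 ± 0.22, limma, adjusted p = 0.971), with a sign that turned on edgeR's recovered reads (0.04, adjusted p = 0.956) and without brain-343 (0.13, adjusted p = 0.837). Microglia exceeded mural cells by 1.77 ± 0.22 (adjusted p = 7.88e-05). In the sums Ier2 was at 262, 241 and 118 CPM in microglia, 144, 155 and 110 in mural cells, 171, 132 and 99.7 in endothelial cells and 48.7, 54.4 and 0 in neural cells. The difference of microglia minus mural cells was 0.98 ± 0.28 (edgeR, adjusted p = 0.00367), and it was not called by DESeq2 (0.80, adjusted p = 0.166), without plate 1 (0.63, adjusted p = 0.477) or without plate 2 (0.99, adjusted p = 0.159). That of microglia minus endothelial cells was 0.82 ± 0.28 (adjusted p = 0.0182), and it too was lost under DESeq2 (0.65, adjusted p = 0.312), with no filter (0.77, adjusted p = 0.098), without plate 1 (0.67, adjusted p = 0.486) and without plate 2 (0.63, adjusted p = 0.452). Mural minus endothelial cells was -0.17 ± 0.29 (adjusted p = 0.778) and 0.03 without plate 1 (adjusted p = 0.998). Ier2 was the member with the smallest excess of microglia over endothelial cells in bulk.

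Dusp1 encodes the phosphatase that switches MAP kinases off. It is on chromosome 17 (26505590 to 26562128, - strand). Its normalized counts were 91936, 91505 and 74292 in microglia, 21635, 19470 and 26088 in mural cells, 10607, 10659 and 10933 in endothelial cells and 2453, 2406 and 2763 in neural cells. The 4 populations did not overlap, and the 3 brains lay close together. The steps were 1.94 ± 0.12 from mural cells to microglia (limma, adjusted p = 3.97e-07) and 1.05 ± 0.12 from endothelial to mural cells (adjusted p = 8.75e-05). In the sums microglia had 258, 207 and 690 CPM, mural cells 269, 227 and 302, endothelial cells 177, 125.7 and 142 and neural cells 97.4, 75.7 and 65.7. Microglia and mural cells overlapped there, at 0.54 ± 0.31 (edgeR, adjusted p = 0.174), with 0.11 without plate 3 (adjusted p = 0.67) and 1.01 without plate 2 (adjusted p = 0.144). Microglia were above endothelial cells by 1.14 ± 0.32 (adjusted p = 0.00334), and by 0.72 without plate 3 (adjusted p = 0.00381). Mural minus endothelial cells was 0.60 ± 0.31 (adjusted p = 0.195), and 0.61 without plate 3 (adjusted p = 0.0206).

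Hspa1a, the inducible HSP70, was high in mural cells and microglia in bulk and highest in mural cells in the single-cell sums. It is a gene of 1 exon on chromosome 17 (34969190 to 34972156, - strand), beside its near-identical copy Hspa1b (34956436 to 34959238), and how reads were split between them is uncertain. Normalized counts were 3495, 4389 and 11358 in mural cells, 5395, 5743 and 8444 in microglia, 248, 380 and 1240 in endothelial cells and 22.7, 16.6 and 19.0 in neural cells. Mural cells and microglia overlapped, with a log2 difference of 0.20 ± 0.57 (limma, adjusted p = 0.826) whose sign turned on edgeR's recovered reads (-0.02) and without brain-340 (-0.02, adjusted p = 1 for both). Mural cells were above endothelial cells by 3.51 ± 0.57 (adjusted p = 0.000978). The copy Hspa1b gave 2.78 for that difference (adjusted p = 0.000585). Brain-346 had the highest Hspa1a in mural, endothelial and microglial libraries. In the single-cell sums, whose tables hold Hspa1a alone of the pair, mural cells had 474, 625 and 2042 CPM, microglia 151, 136 and 335, endothelial cells 67.8, 94.4 and 257 and neural cells 2.21, 9.47 and 10.9. Mural cells were above microglia on every plate, and microglia minus mural cells was -2.22 ± 0.42 (edgeR, adjusted p = 1.17e-05), but DESeq2 gave -2.19 with an adjusted p of 0.0681. Hspa1a was highest on plate 3 in mural cells and microglia. Its endothelial value there did not come from the 8 cells with endothelial markers highest, which had none, and its neural value was 1 transcript (exact Poisson 95% interval 0.277 to 61.0 CPM). Microglia minus endothelial cells was 0.77 ± 0.46 (adjusted p = 0.186), 0.86 with the plate as a block (adjusted p = 0.00498), 0.96 without plate 3 (adjusted p = 0.00151), 0.25 without plate 1 (adjusted p = 0.859), 0.46 by DESeq2 (adjusted p = 0.838) and 1.55 over cells with their own gate's markers highest (adjusted p = 0.00102). In that last setting, which was chosen after seeing the data, the endothelial sum of plate 3 fell to 0 transcripts of Hspa1a.

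**Figure D2:**
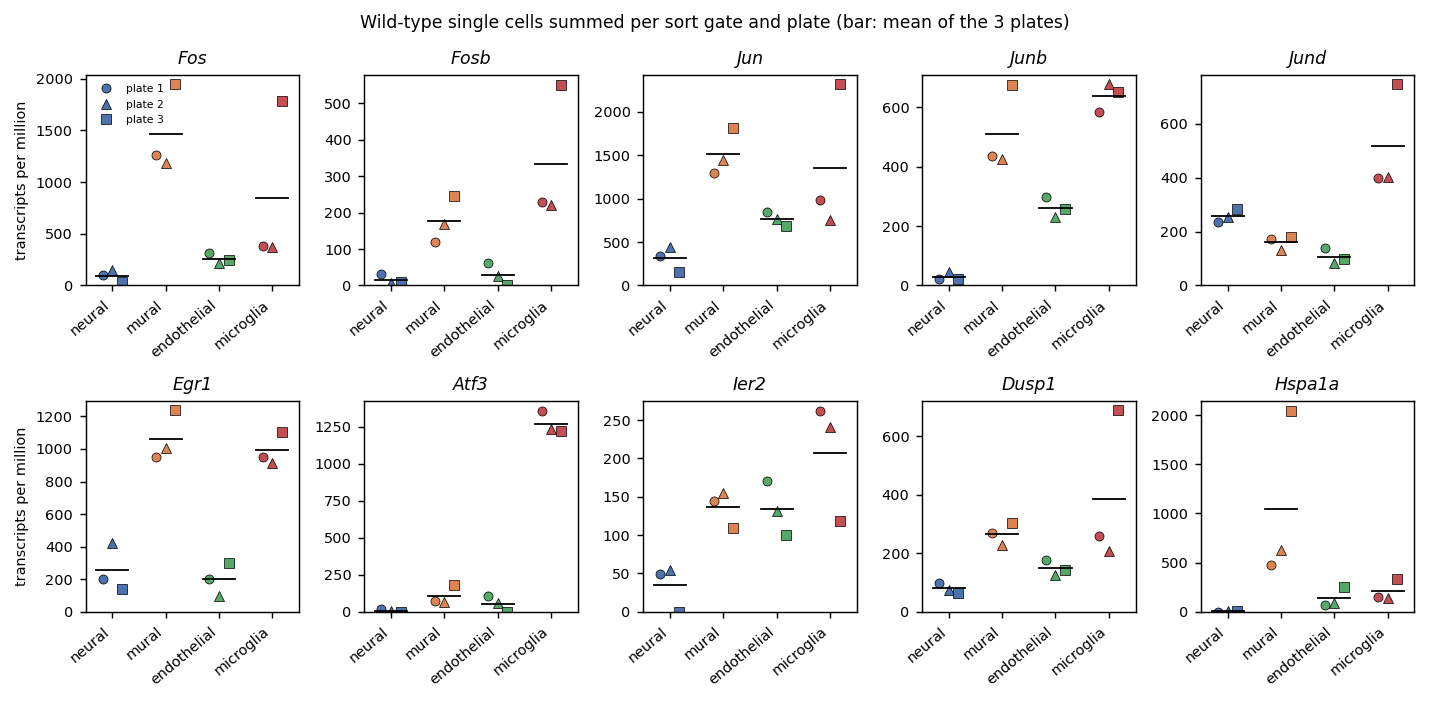
CPM of each gene in wild-type cells summed by sort gate and plate (linear axes from 0), with 1 symbol per plate and a bar at the mean. Plate 3, drawn as squares, holds 6 to 14 cells a gate and gives the highest microglial Fos, Fosb, Jun, Jund, Egr1, Dusp1 and Hspa1a.

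Side by side, both kinds of data put most members lowest in neural cells. In the sums 9 of 10 members were lower in neural cells than in the mean of the others, where 39.8% of 9281 genes were called and 17.3% were lower, with a median of -2.39 against 0.04 over all genes. Against endothelial cells 8 of 10 were higher in microglia (17.5% of genes, 36.2% in either direction, median 1.44) and 4 of 10 in mural cells (9.17% of genes, 20.7% in either direction, median 0.73). The 4 were Fos, Fosb, Egr1 and Hspa1a, at 1.75 to 2.99 in the sums and 1.74 to 3.51 in bulk. Between microglia and mural cells 4 members were higher in microglia (18.9% of genes) and 1 lower (18.8%, 37.7% in either direction), with a median of 0.59. All 3 mural sums were above all 3 endothelial sums for 7 members (17.5% of genes) and below for 0 (9.52%). With the plate as a block, microglia against mural cells gave 5 members higher and 2 lower (20.3% and 19.7% of genes), Junb and Fos being added. Microglia against endothelial cells gave 10 higher (19.1% of genes), and mural against endothelial cells 6 higher (10.1%). In neural cells 9 were lower (18.5%), as without the block. The bulk and single-cell cells came from different sorts, gates and chemistries, and no test joins them.

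**Figure D3:**
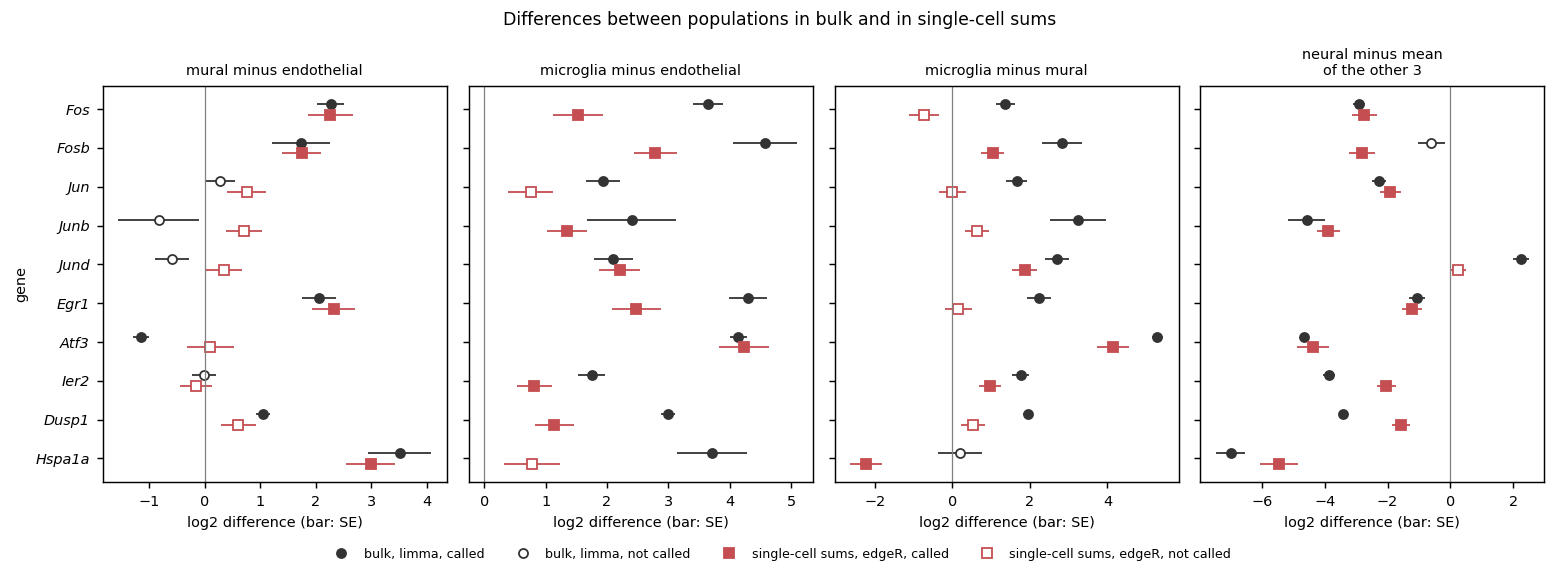
Log2 differences between populations with their standard errors (bars), from bulk libraries (black circles, limma) and single-cell sums (red squares, edgeR), where filled symbols passed an adjusted p of 0.05. Mural minus endothelial differences of Fos, Fosb and Egr1 lie together, while microglia minus mural differences in the single-cell sums are near 0 for Jun and below 0 for Fos and Hspa1a.

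Other genes of the response were counted from lists written with earlier results known. Of 40 other immediate early genes 39 were tested in bulk, and 20 were higher and 5 lower in microglia than in endothelial cells, with a median of 1.22. Over all genes 17.0% were higher and 15.3% lower. Egr3, a relative of Egr1, was higher by 5.79 (limma, adjusted p = 7.76e-06), Ptgs2, which makes prostaglandins, by 5.79 (adjusted p = 0.0165), and the matrix protein gene Ccn2 was lower at -7.61 (adjusted p = 4.91e-06). Against mural cells 25 were higher and 4 lower in microglia (20.1% and 17.9% of all genes), with Fosl1, another FOS family gene, at 6.07 (adjusted p = 0.00343), and Ptgs2 at 6.38 (adjusted p = 0.00841) and Ccn2 at -6.43 (adjusted p = 1.74e-05). In mural against endothelial cells 3 were higher and 8 lower (13.5% and 14.3% of all genes), and the largest were Dusp2 at -4.68 (adjusted p = 0.000272), the kinase gene Plk2 at -3.33 (adjusted p = 5.81e-07) and Egr3 at 2.85 (adjusted p = 0.00219). In neural cells 25 of 39 were lower and 6 higher (31.2% and 32.9% of all genes), among the latter Npas4, a factor induced by neuronal activity, at 7.38 (adjusted p = 0.000427), with Dusp2 at -6.23 (adjusted p = 1.8e-06) and Klf2 at -5.54 (adjusted p = 2.67e-06). Library chemistry and the neural population cannot be told apart in these bulk values. In the single-cell sums 34 were tested, with 17 higher and 7 lower in microglia than in endothelial cells (17.5% and 18.7% of all genes), 16 higher and 6 lower in microglia than in mural cells (18.9% and 18.8%) and 4 higher and 9 lower in mural than in endothelial cells (9.17% and 11.5%). The sums gave 26 of 34 lower and 0 higher in neural cells (17.3% and 22.5% of all genes), led by Nfkbiz at -6.08 (edgeR, adjusted p = 1.29e-11), Klf2 at -4.64 (adjusted p = 6.55e-13) and Klf4 at -4.38 (adjusted p = 3.77e-12).

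Of 18 other heat shock genes 11 were higher and 3 lower in microglia than in endothelial cells in bulk (17.0% and 15.3% of all genes), led by the co-chaperone Dnajb1 at 3.04 (limma, adjusted p = 1.03e-05), Hspb1 at -2.87 (adjusted p = 0.000463) and Hspa1b at 2.73 (adjusted p = 0.000424). Between mural and endothelial cells 6 were higher and 1 lower (13.5% and 14.3% of all genes), with Hspa1b, Dnajb4 at 1.59 (adjusted p = 0.00313) and Dnajb1 at 1.10 (adjusted p = 0.0149). The single-cell sums gave 1 of 17 higher and 0 lower for this comparison (9.17% and 11.5% of all genes). In the sums 9 of 17 were higher and 1 lower in microglia than in endothelial cells (17.5% and 18.7% of all genes), and Dnajb1 was at 1.93 (edgeR, adjusted p = 2.05e-07). Between microglia and mural cells, where Hspa1a was lower in the sums, 7 of 17 were higher and 1 lower there (18.9% and 18.8% of all genes), among them Hspa4 at 1.38 (adjusted p = 4.91e-05). The bulk libraries gave 3 of 18 higher and 3 lower for this comparison (20.1% and 17.9% of all genes). The kinases and factors upstream, such as MAP kinases, RSK kinases, SRF, ELK and CREB genes, numbered 22. In bulk 5 were higher and 11 lower in mural than in endothelial cells (13.5% and 14.3% of all genes). The kinase gene Mapk10 was at 5.07 (limma, adjusted p = 0.0493), Rps6ka1, an RSK gene, at -4.61 (adjusted p = 9.3e-06) and Mrtfa, which encodes an SRF partner, at -2.81 (adjusted p = 0.00314). Neural markers summed to 26757 to 49156 in mural and 15689 to 21184 in endothelial libraries, and their part in the Mapk10 difference was not tested. Between microglia and endothelial cells 3 were higher and 4 lower, near the 17.0% and 15.3% of all genes, with Mapk14, the p38 kinase, at 2.06 (limma, adjusted p = 5.04e-05), Rps6ka1 at 1.73 (adjusted p = 0.00506) and the SRF partner Mrtfb at -3.27 (adjusted p = 1.41e-06). In neural cells 11 were higher and 5 lower (32.9% and 31.2% of all genes), with Srf at 3.44 (adjusted p = 1.2e-06), Elk1 at 3.91 (adjusted p = 1.61e-05) and Mapk10 at 5.82 (adjusted p = 0.00394). In the sums 4 of 20 were higher and 6 lower in neural cells (22.5% and 17.3% of all genes), and Mapk10 was again among the higher ones, at 5.89 (edgeR, adjusted p = 1.64e-13).

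The genes most like the members over the 12 bulk libraries, by Pearson r with the mean of their standardized log2 levels, were Tob2 (0.99), Olfml3, Limd2, Irf8 and Btg2 (0.98 each). The order of populations weighs heavily in such an r, since only 4 populations stand behind the 12 points.

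Single cells show how the transcripts were spread. With 1500 transcripts drawn from each cell, the 10 genes together had a median of 7 transcripts in mural cells (quartiles 3 and 11), 6 in microglia (4 and 10), 2 in endothelial cells (1 and 5) and 1 in neural cells (0 and 3). None of them was found in 15 of 210 mural cells, 1 of 128 microglia, 48 of 225 endothelial cells and 40 of 123 neural cells. Without thinning, 93.5% of neural cells (exact 95% interval 87.59 to 97.15), 98.1% of mural, 98.22% of endothelial and 99.22% of microglial cells held at least 1 transcript of a member. The thinned shares were 67.48%, 92.86%, 78.67% and 99.22%. At least 5 of the 10 genes were detected after thinning in 35.24% of mural cells, 32.81% of microglia, 5.778% of endothelial and 0.0% of neural cells, and before it in 81.9%, 90.62%, 51.11% and 21.95%. The 10% of thinned cells with most held 31.44% of the members' transcripts in mural cells, 34.0% in microglia, 33.92% in endothelial cells and 33.82% in neural cells. Intervals cover counting error only.

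Over the 3 plates together, a Fos transcript was found in 87.14% of mural cells and 65.62% of microglia, and after thinning in 62.86% and 31.25%, although microglia were the deeper cells. On plate 3 alone the shares were 60.0% of 10 mural cells and 66.67% of 6 microglia, and after thinning 5 of the 10 and 3 of the 6 had one. Again over the 3 plates, Egr1 was found in 87.62% of mural cells and 89.84% of microglia, and after thinning in 63.81% and 54.69%. Hspa1a was found in 73.33% of mural cells against 35.94% of microglia, 24.44% of endothelial and 4.065% of neural cells, and after thinning in 39.52%, 14.84%, 9.778% and 1.626%. The endothelial share lies within the range of the mural marker Rgs5 in other populations (20.89% to 25.2%, thinned 5.469% to 11.11%). It lies above the endothelial shares of Itgam (3.556%, thinned 1.333%) and Tubb3 (5.333%, thinned 1.333%). Whether it stands for expression was not tested. Across thinned cells Fos and Jun had a Pearson r of 0.48 in mural cells (n = 210), 0.47 in microglia (n = 128) and 0.36 in endothelial cells (n = 225). Fos and Egr1 had 0.46 in mural cells and 0.33 in microglia, and Jun and Hspa1a 0.35 and 0.40. Cells of a gate share plates and libraries, and the r values are descriptions.

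**Figure D4:**
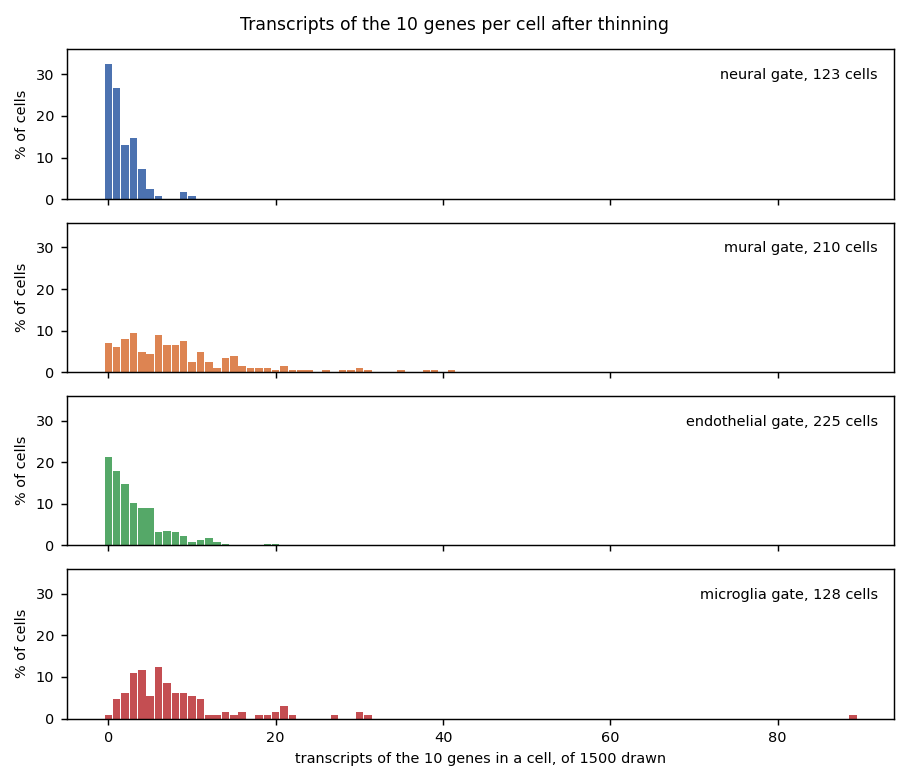
Share of cells (percent) by the number of transcripts of the 10 genes among 1500 drawn from each cell, for the 4 sort gates of the wild-type plates. Mural cells and microglia are spread around medians of 7 and 6, neural and endothelial cells pile up at 0 to 2, and 1 microglia cell lies at 89.

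A single microglia cell of plate 2 held 281 member transcripts among 4363, or 6.45%, where the next cell had 2.20% and the median was 0.42%. It had 86 transcripts of Jun, 44 of Hspa1a, 43 of Atf3 and 30 of Fos. Without it the microglia sum of plate 2 moved from 136 to 67.3 CPM for Hspa1a, from 755 to 625 for Jun and from 374 to 329 for Fos. Of the 6 microglia of plate 3, cells 1, 3 and 6 had 53, 17 and 19 transcripts of Fos and 28, 67 and 16 of Jun, and cells 2, 4 and 5 had 1, 0 and 0 of Fos and 2, 1 and 4 of Jun. Cell 5 nonetheless had 29 of Atf3. Cells 1, 3 and 6 had 8950, 8943 and 5275 transcripts in all, and the other 3 had 4408 to 13411.

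On the Mof knockout plates, populations were taken from markers, since no gates were given. MOF is a histone acetyltransferase, encoded by Kat8, and Kat8 itself stood at 16.3, 17.6 and 17.5 CPM over all cells of wild-type plates 1 to 3 and 12.7, 10.4 and 11.2 of knockout plates 4 to 6, with 5 to 46 transcripts a plate. Reads come from the 3′ end of the message, and where the deletion lies was not given, so these values do not check the labels. In the neural-like cells alone Kat8 was at 24.0, 28.9 and 10.4 on plates 1 to 3 and 5.15, 7.63 and 24.9 on plates 4 to 6, so the genotypes overlap there. Plate 4 was mural-like in 276 of 337 cells, plate 5 microglia-like in 82 and neural-like in 113 of 195, and plate 6 endothelial-like in 299 of 350. Neural-like cells, 60, 113 and 40 on the 3 plates, were the only kind present on all 6, against 83, 60 and 15 on wild-type plates. Of the wild-type ones 55, 53 and 13 came from the neural gate, and the rest came from the mural and endothelial gates and, for 11 on plate 1 and 4 on plate 2, from a small gate of medium or low PDGFRβ that is not used elsewhere here.

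In neural-like cells 8 members had enough counts to be tested, and none was called (edgeR), as was none of 7382 genes, or 0.0%. At an unadjusted p under 0.05 there were 4.65% of genes. DESeq2 called 2 genes and edgeR with no filter 91, and no member was among them. On wild-type plates 1 to 3 and knockout plates 4 to 6, Jun was at 405, 467 and 146 against 734, 455 and 533 CPM, with a log2 difference of 0.73 ± 0.32 (p = 0.0498, adjusted p = 0.9). Ier2 was at 47.9, 57.8 and 0 against 139, 73 and 71 CPM, with 1.17 ± 0.51 (p = 0.0489, adjusted p = 0.9), and all knockout plates lay above all wild-type plates, as for 5.57% of genes. Jund was at 223, 246 and 271 against 222, 188 and 149 CPM, with all knockout plates below, as for 5.59% of genes (-0.42 ± 0.27, adjusted p = 0.9). Fos was at 237, 167 and 31.2 against 517, 92.7 and 110 CPM, and its difference of 0.62 ± 0.68 (adjusted p = 0.932) turned to -0.73 without plate 4 (adjusted p = 0.705). In the wild-type neural-like cells of the neural gate alone, Fos was at 100.2, 147 and 33.6 CPM, and in the other 28, 7 and 2 cells at 518, 307 and 0.0. The comparison of genotypes was not run on the neural gate alone, since knockout wells have no gates. Egr1 (0.24 ± 0.33, adjusted p = 0.941) turned to -0.04 without plate 4 (adjusted p = 0.996), and Junb (0.14 ± 0.35, adjusted p = 0.975) to -0.02 without plate 1. Without plate 4, Ier2 was 0.72 (adjusted p = 0.727), Jun 0.48 (0.741) and Atf3 0.64 (0.857). Without plate 3, Jun was 0.48 (adjusted p = 0.927) and Jund -0.24 (0.932), and without plate 6 Jund was -0.27 (0.865). The mural markers Pdgfrb, Rgs5 and 10 others summed to 531 CPM in the neural-like cells of plate 4, the mural-rich plate, against 52.1 to 196 on plates 1, 2, 3, 5 and 6, and their part in its Fos was not tested. Dusp1 (-0.35, adjusted p = 0.9) and Atf3 (1.04, adjusted p = 0.9) were not called either. Fosb and Hspa1a were too low to pass the filter, with 4 to 29 and 1 to 15 transcripts on the knockout plates.

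The other populations had 1 knockout plate each, so their values have no test, and plate and genotype cannot be told apart. Not counted below are 11 mural-like cells on plate 6 and 1 endothelial-like cell on plate 4. Microglia-like cells of plate 5 lay below all 3 wild-type plates for 8 of 10 members, where 19.6% of 5763 genes did. Without the plate 2 cell described above, a setting chosen after seeing the data, it was 7 of 10 (19.7% of genes), since Fosb, at 219 CPM on plate 5 and 221 on plate 2, was no longer below the 199 left on plate 2. Fos, at 327, was then close to the 329 of that plate. Egr1 was at 451 CPM (exact Poisson 95% interval 407 to 500) against 940, 916 and 1061, Jun at 482 (436 to 533) against 966, 755 and 2224, and Jund at 236 (204 to 272) against 403, 404 and 738. Atf3 was at 908 (843 to 975) against 1346, 1234 and 1174. The 4 libraries of plate 5 ranged from 379 to 611 for Egr1, 292 to 727 for Jun, 214 to 318 for Jund and 752 to 1072 for Atf3, each below all 3 wild-type plates, while those of the other 6 members were not all below. Without the plate 2 cell Jun on that plate was 625, within the range of the libraries. Hspa1a, at 313 (275 to 353), was above plates 1 and 2 (145 and 136, or 67.3 on plate 2 without that cell) and below plate 3 (321), but the 4 libraries of plate 5 had 135, 383, 946 and 195 CPM, a spread wider than the interval. The microglia-like cells had a median of 8879 transcripts on plate 5 against 10679, 10836 and 8943, and a median of 10.78% mitochondrial transcripts against 16.05%, 14.03% and 8.991%. Mural-like cells of plate 4 had 3 members below and 2 above the wild-type plates (16.0% and 23.9% of 6477 genes), with Egr1 at 884 against 1044, 1006 and 1075 and Fosb at 236 against 120, 170 and 195 CPM. Endothelial-like cells of plate 6 had 2 below and 2 above (19.4% and 8.22% of 6048 genes), and their Fos of 333 CPM was close to the 316 of plate 1. On the knockout plates mural-like Fos was at 1159 CPM (plate 4), endothelial-like Fos at 333 (plate 6) and microglia-like Fos at 327 (plate 5), while neural-like Fos was at 517, 92.7 and 110. Microglia-like Jun, at 482, was below endothelial-like Jun, at 853, where wild-type plates 1, 2 and 3 had 966, 755 and 2224 against 863, 768 and 638. Atf3 was at 908 in microglia-like cells, 101 in mural-like, 76.1 in endothelial-like and 3.55 to 51.5 in neural-like cells.

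**Figure D5:**
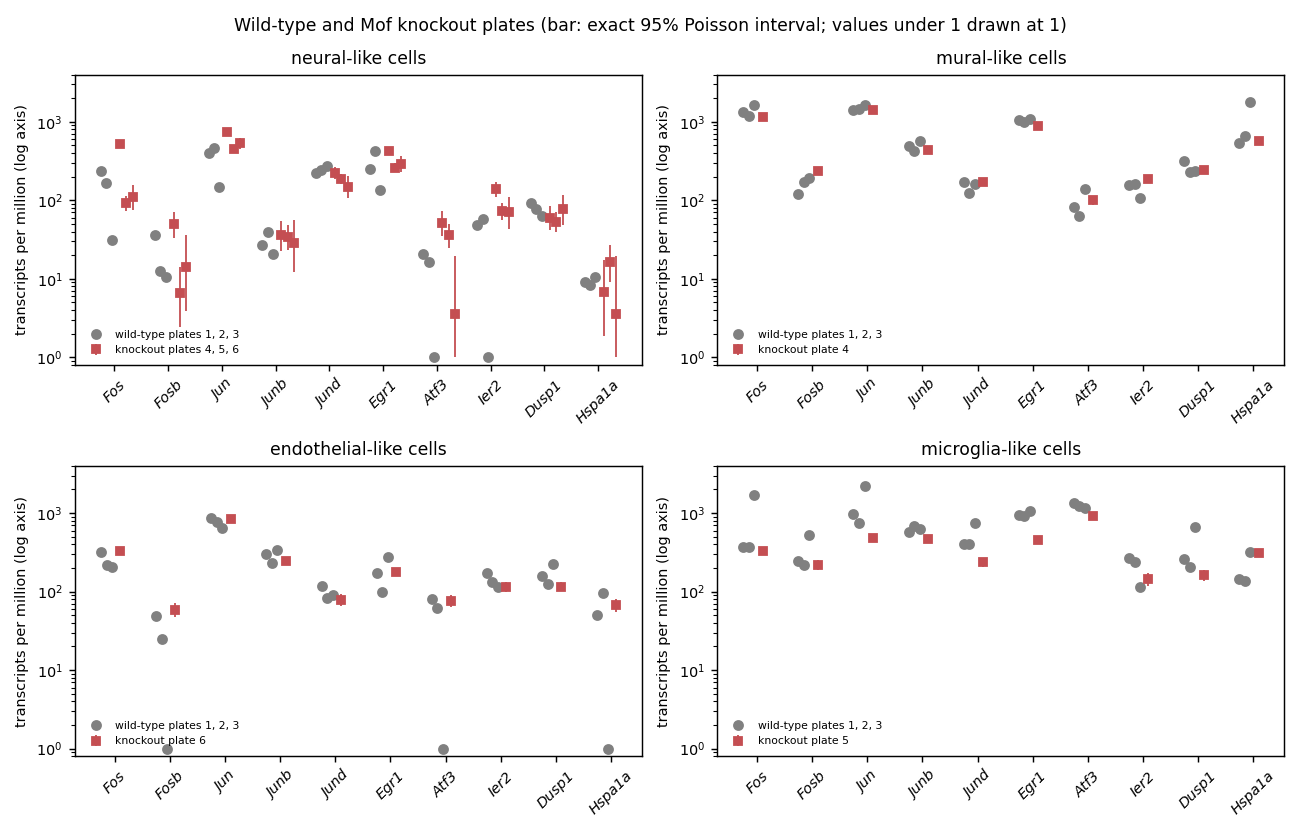
CPM (log axis) of each gene by marker-assigned population, on wild-type plates (grey circles) and knockout plates (red squares with exact 95% Poisson intervals, which cover counting error only). In microglia-like cells the single knockout plate lies below all wild-type plates for 8 of 10 genes (7 without 1 plate 2 cell), and in neural-like cells the plates of both genotypes overlap for the genes tested other than Ier2 and Jund.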

How the data were processed

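The authors deposited bulk values as normalized counts, a depth-scaled signal in which the reads of a gene are divided by 1 factor per library. All 124030 low values (up to 100 reads, tolerance 0.01) gave whole reads again. The single-cell tables, as deposited by the authors, hold transcript counts per well, corrected for identifiers drawn more than once. The submitters' processing notes name BWA 0.6.2-r126, STAR, featureCounts, DESeq2 and mm10. Every column of the bulk table belonged to a sample.

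Bulk levels were tested with limma 3.58.1 on log2(value + 1), for genes with a mean of at least 10, so fold changes of low genes are understated. Wild-type cells with over 1500 transcripts were summed by gate and plate, rounded, and tested with edgeR 4.0.16 (quasi-likelihood, TMM, filterByExpr), as were neural-like cells of plates 1 to 6. Tests were two-sided, with Benjamini-Hochberg adjustment over all genes tested and a threshold of 0.05. Cells were assigned by the highest of 4 marker lists. No doublet caller was run, since a well received 1 sorted cell. Intervals are exact 95% and cover counting error only. Gene positions are GENCODE vM21 (GRCm38), and start sites are from RefSeq. Scripts were tested on simulated data. Statistics ran in R 4.3.3, with DESeq2 1.42.0 as an alternative, and tables and plots in Python 3.11.15 with pandas 2.3.3, matplotlib 3.10.9, scipy 1.17.1 and numpy 2.4.6.

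Bulk numbers mark brains, so populations of 1 number come from 1 brain (residual correlations -0.0217 to 0.0406). Gates of 1 plate deviated together (0.141 to 0.275), so plates pair the sums. Alternatives were the brain or plate as a block, other tools, filters, pseudocounts, scalings and depth minimums, and leaving out each brain or plate. The 10 genes and all lists were chosen with earlier results of these data known. Every member was named, with up to 3 called differences from each companion list comparison given and the 5 genes most like the members. Not every comparison of a companion list is given.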

Additional observations from a re-analysis of the deposited data

Results flagged for a closer look

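Fos in microglia against mural cells was higher in 3 of 3 brains (log2 difference 1.37 in bulk) and lower on 3 of 3 plates (-0.74 in the single-cell sums). The second was not called by edgeR without a block (adjusted p = 0.13), but was with the plate as a block. On plate 3 the exact Poisson 95% intervals of mural cells (1638 to 2293 CPM) and microglia (1433 to 2188) overlapped. Jund in mural against endothelial cells was lower in 3 of 3 brains (-0.60) and higher on 3 of 3 plates (0.34), and neither difference was called. Over all members and pairs of populations, 43 comparisons had the same direction in all brains and plates, 15 were mixed and these 2 were opposite. The difference between bulk and single cells was not tested for either gene, and the sorts, gates and chemistries behind them differed.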

How the results depend on the processing

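Of the results for single genes, 867 kept their direction and side of the threshold under an alternative, 19 gained a call, 26 lost one and 17 turned. Of the counts and shares, 83 stayed and 20 moved. Depth limits plate 3, with 6 to 14 cells a gate and the shallowest sums. The cause of the shifts below was not tested.

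Genes called in bulk mural against endothelial cells numbered 5496, and 3519 to 4060 with 1 brain left out. In the single-cell sums, DESeq2 called 790 genes for mural against endothelial cells, 1815 for microglia against endothelial cells, 1987 for microglia against mural cells and 2436 for neural cells, where edgeR called 1919, 3358, 3498 and 3694. With 1 plate left out these were 571 to 2561, 1291 to 4147, 1446 to 4288 and 1508 to 4474. On neural-like knockout cells DESeq2 called 2 genes, edgeR with no filter 91, and leaving out a plate gave 0 to 3. Thinned to 1500 transcripts, cells with a member made up 67.48% of neural, 92.86% of mural and 78.67% of endothelial cells.

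Signs turned as follows. On recovered reads edgeR gave 0.040 for Ier2 (mural minus endothelial) and -0.018 for Hspa1a (microglia minus mural). With the plate as a replicate block Atf3 (mural minus endothelial) was -0.011. Jun (microglia minus mural) was 0.023 by DESeq2, 0.13 over 3000 transcripts, 0.079 over every gated well and 0.039 over cells with their own markers highest, a setting added after seeing the data. Leaving out 1 brain gave -1.44 to 0.27 for Junb and -0.11 to 0.13 for Ier2 (mural minus endothelial), and -0.020 to 0.51 for Hspa1a (microglia minus mural). Leaving out 1 plate gave -0.34 to 1.04 for Atf3 and -0.37 to 0.033 for Ier2 (mural minus endothelial), -0.46 to 0.48 for Jun and -0.033 to 0.29 for Egr1 (microglia minus mural). In knockout neural-like cells it gave -0.73 to 1.09 for Fos, -0.018 to 0.38 for Junb and -0.036 to 0.67 for Egr1. With the brain as a replicate block, Fosb in neural cells, at -0.61, became called (adjusted p = 0.0484), and no other bulk call of a member changed.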
